A study of Homo sapiens with 6 samples.

Results

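Ribosome biogenesis factors are the proteins that make, modify, cut and fold the ribosomal RNA precursor and mount ribosomal proteins on it. The list examined here holds 55 of the 58735 genes in the expression table. They were chosen by gene symbol as factors of the polymerase I, small nucleolar RNA, small subunit and large subunit steps of this pathway, by a rule that uses no measured value, although earlier results of these data were known when the list was drawn up. All 55 were found through their Ensembl identifiers in GENCODE release 29 on GRCh38. RNA was sequenced from RKO, an established human colorectal carcinoma cell line, in 6 libraries. The negative control group (Vector) has 3, and the other 3 are of cells stably transduced with a lentiviral construct for the long noncoding RNA LOC101927668 (LOC_OE). Both groups are RKO cells in the same medium. The overexpressing line was made with the full-length transcript in a plenti6 backbone and puromycin, and the promoter that drives it is not given in the sources used here. Nothing in the labels says whether a group was a pool or a clone, and the 3 libraries of a group are described only as biological replicates, so p-values measure the spread between these libraries.

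Ribosome production starts in the nucleolus, where RNA polymerase I transcribes a long precursor that holds the 18S, 5.8S and 28S ribosomal RNAs. Box C/D and box H/ACA small nucleolar ribonucleoproteins (snoRNPs) guide 2′-O-methylation and pseudouridylation of the precursor, the small subunit processome cuts out and folds the 18S part, and separate sets of GTPases, helicases and scaffold proteins mature the pre-40S and pre-60S particles until both are exported. The pathway uses much of a growing cell's energy, and cancer cells commonly show enlarged nucleoli. Transcript levels of the factors do not measure ribosome output, which was not assayed here.

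The snoRNP proteins work on small RNAs that are themselves cut from introns, often introns of ribosome biogenesis genes. GENCODE release 29 places small nucleolar RNAs inside 9 of the 55 genes, among them NOP58, NOP56, DKC1 and NCL. The sequences below are shown because they are the RNA partners that proteins of the same list bind, and they lie inside genes of the list. They are read 5′ to 3′ on the strand of the gene, written as DNA. Capitals mark box C (TGATGA) and box D (CTGA) in the C/D class and the ACA box in the H/ACA class. SNORD11 lies in NOP58 on the plus strand at chr2:202293051-202293134, SNORD57 in NOP56 on the plus strand at chr20:2656939-2657010, SNORD20 and SNORA75 in NCL on the minus strand at chr2:231456444-231456523 and chr2:231455800-231455936, and SNORA56 in DKC1 on the plus strand at chrX:154774998-154775126.
SNORD11: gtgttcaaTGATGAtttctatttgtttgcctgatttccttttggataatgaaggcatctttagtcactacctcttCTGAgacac
SNORD57: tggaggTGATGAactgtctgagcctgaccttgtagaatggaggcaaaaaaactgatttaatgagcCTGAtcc
SNORD20: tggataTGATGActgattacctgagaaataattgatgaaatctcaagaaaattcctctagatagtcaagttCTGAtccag
SNORA75: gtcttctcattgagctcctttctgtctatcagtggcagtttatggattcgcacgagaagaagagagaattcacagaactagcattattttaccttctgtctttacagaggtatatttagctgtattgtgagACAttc
SNORA56: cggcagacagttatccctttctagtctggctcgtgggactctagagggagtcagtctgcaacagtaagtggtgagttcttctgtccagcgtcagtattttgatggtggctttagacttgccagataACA

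The small nucleolar RNAs inside the listed genes had between 0 and 23 reads in a library, so their levels were not compared. Their host genes had mean levels from 2.1 FPKM in PPAN to 149 FPKM in NCL. By the test described next, 6 of the 9 hosts were higher in LOC_OE, beside 18 of the 45 tested members that host none. The share of all genes tested was 10.7%. The median log2 fold change was 0.63 in the hosts and 0.43 in the members that host none. Without LOC_OE replicate 1, which is described below, 8 of the hosts and 30 of those members were higher, beside 19.4% of all genes. The hosts also had the higher median Vector level, 28.1 against 16.8 FPKM.

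Transcript levels are given as FPKM, fragments scaled by gene length and library size, which allows levels of different genes to be set side by side. The libraries held 15008842 to 18410231 reads on genes. For LOC101927668 itself, 1, 1 and 0 reads were found in Vector, compared with 231, 270 and 276 in LOC_OE. LOC_OE replicate 1 stood apart: across genes its log2(FPKM + 1) correlated at 0.9666 and 0.9624 with LOC_OE replicates 2 and 3, which correlated at 0.982 with each other. Values are therefore given with and without it. Of 7 colorectal epithelial markers, 4 reached 1 FPKM (EPCAM, KRT8, KRT18 and CDX2), CDH1 was listed at 0 in every library, and KRT20 and VIL1 stayed below 0.3. No fibroblast marker of 5 and only CD68 of 5 leukocyte markers reached 1 FPKM, with summed levels of at most 0.16 and 1.21 FPKM. In bulk RNA, more cells expressing a gene and more RNA per cell cannot be told apart.

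Ribosome biogenesis factors mostly had higher levels in LOC_OE, by amounts that depended on the scaling and on LOC_OE replicate 1. Of the 55 genes, 54 passed the expression filter of at least 0.5 FPKM in at least 3 libraries. All 54 had a log2 fold change above 0 with the deposited scaling, as did 8357 of the 16061 genes tested. After the libraries were brought to an equal summed FPKM, 41 of the 54 did. This rescaling moved the median of all genes from 0.019 to −0.18. The median log2 fold change of the factors was 0.48, or 1.39-fold, with a range from 0.021 for FTSJ3 to 0.99 for NIP7. Their median was 0.23 after that rescaling and 0.32 after quantile normalization. The distance of the factors from the median of all genes was 0.46 with the deposited scaling, 0.40 after the rescaling and 0.30 after quantile normalization.

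In the limma fit over 16061 genes, 24 of the 54 factors were higher at a Benjamini-Hochberg adjusted p under 0.05, whereas 10.7% of all genes tested were. None of the 54 was lower (0 at an unadjusted p under 0.05, and 0 by limma voom), against 9.74% of all genes. A fold change of 1.5 or more was reached by 14 of the 24, and 4.63% of all genes met both thresholds. For 42 of the 54 every LOC_OE library lay above every Vector library, as was so for 24.4% of all genes. No factor showed the opposite order, which 20.9% of all genes did, and in the remaining 12 the groups overlapped. Summed over the 55 genes, the level was 1560, 1450 and 1450 FPKM in Vector and 2900, 2050 and 1980 in LOC_OE. As a share of reads on genes this was 0.63% to 0.654% in Vector, and 1.0%, 0.802% and 0.79% in LOC_OE.

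LOC_OE replicate 1 carried the largest differences. The median over the Vector mean was 0.84 on the log2(FPKM + 1) scale in replicate 1, 0.35 in replicate 2 and 0.31 in replicate 3. Replicate 1 was the highest LOC_OE library for 49 of the 54 factors, and for 7229 of the 16061 genes tested. Without replicate 1 the median log2 fold change was 0.35, and 48 of 54 factors were above 0, as were 8243 of all genes tested. In that fit 38 factors passed the adjusted p threshold and all were higher, against 19.4% of all genes higher and 16.1% lower. The 24 factors that passed with all libraries were all among these 38. Only 6 of the 38 reached 1.5-fold. The number of calls fell when a Vector library was left out, which also leaves fewer libraries in the fit. Leaving out Vector replicate 1, 2 or 3 left 3, 1 and 1 factors past the threshold, while the median log2 fold change stayed between 0.47 and 0.52. The cause of this fall was not tested. Over all genes those fits left 371 to 724 genes past the threshold, of 3277 with all libraries.

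**Figure D1:**
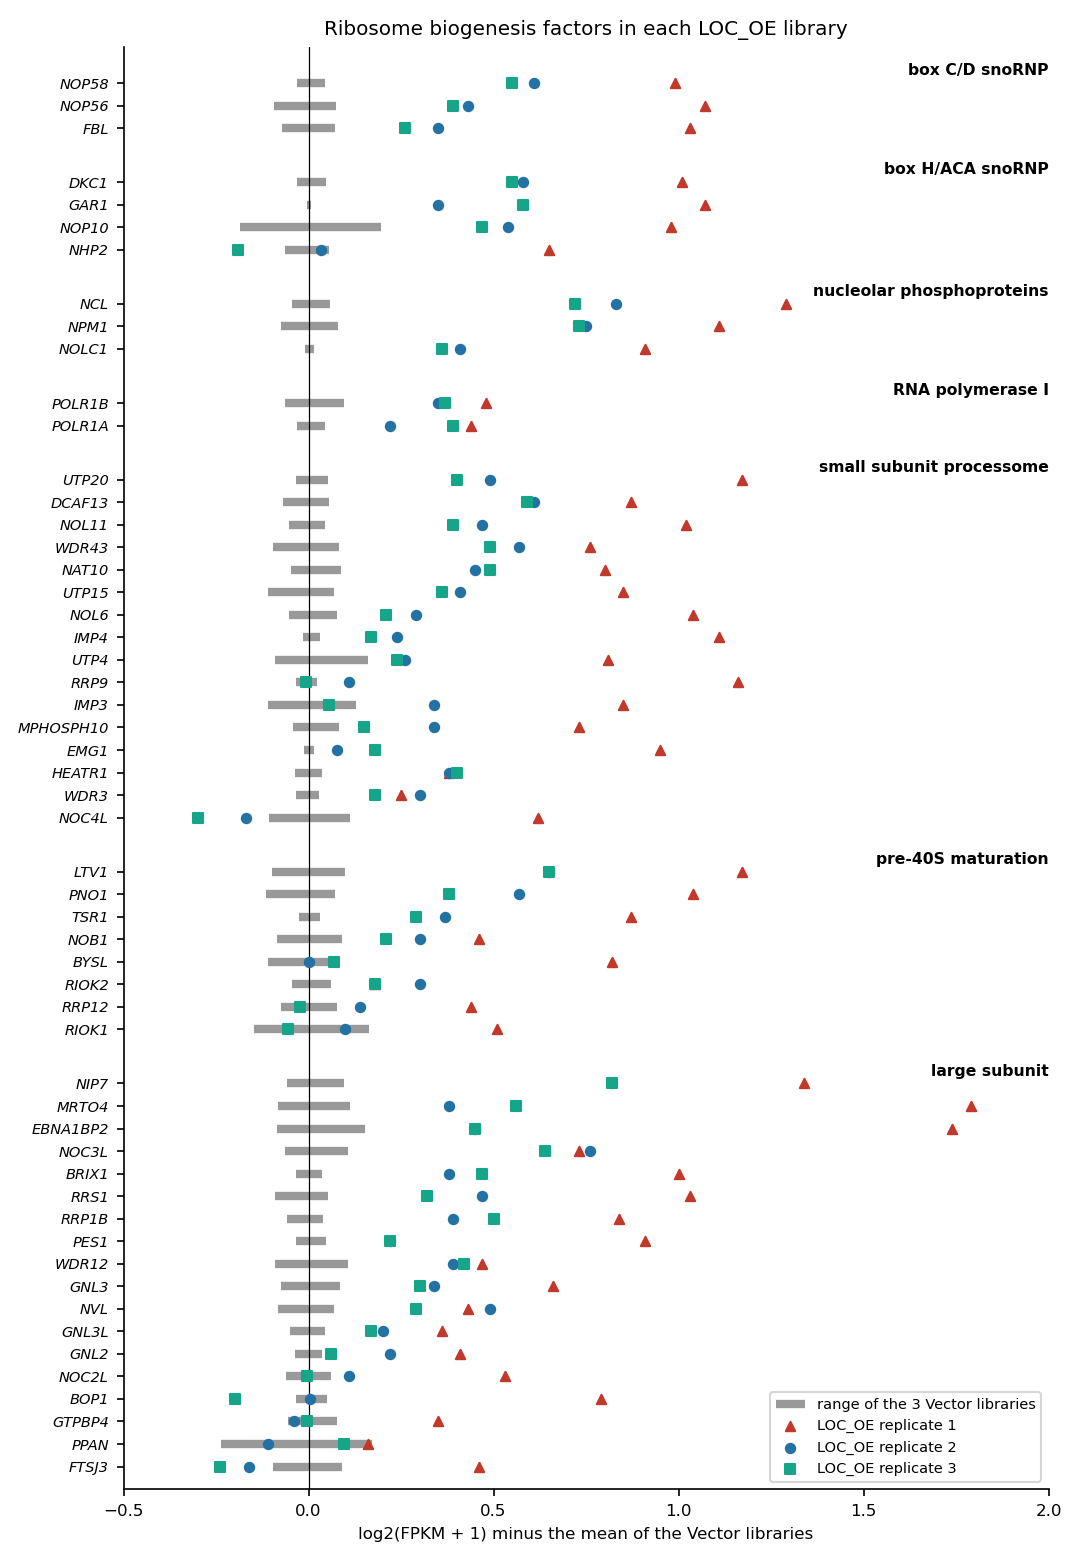
Each row is a ribosome biogenesis factor that passed the filter, grouped by step of the pathway, and the horizontal axis is log2(FPKM + 1) minus the mean of the 3 Vector libraries. Symbols are the 3 LOC_OE libraries and grey bars the range of the Vector libraries, and equal values hide each other; replicate 1 (triangles) is the highest LOC_OE library in 49 of 54 rows, and in 42 rows all 3 symbols lie right of the grey bar.

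Box C/D snoRNP proteins had a median log2 fold change of 0.63, with 1 of 3 past the adjusted p threshold. Of all genes tested, 10.7% were higher. NOP58, a core protein of every box C/D particle (ENSG00000055044, chromosome 2 from 202265716 to 202303666 on GRCh38), had 29.1, 28.7 and 30.3 FPKM in Vector and 59.5, 45.4 and 43.4 in LOC_OE. The groups were well separated, and its log2 fold change was 0.72 (standard error 0.13, limma adjusted p = 0.0162). FBL, the methyltransferase fibrillarin, was the most abundant of the class at 104, 98.8 and 94.1 FPKM in Vector and 203, 126 and 119 in LOC_OE. Every LOC_OE library of FBL lay above Vector, but the distance of replicate 1 from the others widened its error, and its log2 fold change of 0.54 (95% interval 0.047 to 1.04) did not pass with all libraries (limma adjusted p = 0.111) and passed without LOC_OE replicate 1 at 0.30 (limma adjusted p = 0.014). NOP56, the partner of NOP58, was similar, with a log2 fold change of 0.63 (limma adjusted p = 0.0625) and of 0.41 without replicate 1 (limma adjusted p = 0.00559).

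Box H/ACA snoRNP proteins were higher in 3 of 4 cases, each by more than 1.5-fold. Of all genes tested, 4.63% met both thresholds. DKC1, the pseudouridine synthase dyskerin (ENSG00000130826, chromosome X from 154762742 to 154777689), had 28.6, 27.0 and 27.3 FPKM in Vector and 56.6, 41.6 and 41.0 in LOC_OE, a log2 fold change of 0.71 (standard error 0.14, limma adjusted p = 0.0186). NOP10, a small core protein of the same particle, was the most abundant, with 141, 122 and 108 FPKM in Vector and 243, 179 and 170 in LOC_OE. Its groups did not overlap, yet Vector itself varied by an SD of 16.6 FPKM, and NOP10 passed (log2 fold change 0.66, limma adjusted p = 0.04) in only 1 of the 6 fits made without a library. GAR1 had 15.1, 15.1 and 15.2 FPKM in Vector and 32.8, 19.5 and 23.1 in LOC_OE. Its log2 fold change was 0.67 (limma adjusted p = 0.0453), past the threshold in 2 of those 6 fits. NHP2, the fourth core protein, differed from its partners in replicates 2 and 3. It had 31.5, 32.6 and 29.9 FPKM in Vector and 49.9, 32.1 and 27.4 in LOC_OE, so only replicate 1 stood above Vector, and its log2 fold change of 0.17 (limma adjusted p = 0.605) changed to −0.076 without that library.

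The 3 nucleolar phosphoproteins had the highest median of any step, 0.86, and all 3 passed, beside 10.7% of all genes tested. They are abundant proteins that hold the nucleolus together or chaperone particles in it. NCL, nucleolin (ENSG00000115053, chromosome 2 from 231453531 to 231483641), had 105, 97.7 and 100 FPKM in Vector and 247, 180 and 167 in LOC_OE, a log2 fold change of 0.95 (standard error 0.16, limma adjusted p = 0.0129). NPM1, the nucleolar chaperone nucleophosmin (ENSG00000181163, chromosome 5 from 171387116 to 171411137), was the most abundant of all 55 genes. It had 256, 230 and 242 FPKM in Vector and 522, 409 and 403 in LOC_OE, a log2 fold change of 0.86 (standard error 0.13, limma adjusted p = 0.0103), and it passed in 4 of the 6 fits made without a library. GENCODE lists 45 pseudogenes named after NPM1, the highest of which, NPM1P27, had a mean of 24.9 FPKM, so reads can be split between them. NOLC1, a snoRNP chaperone also called Nopp140, had 36.6, 36.0 and 36.1 FPKM in Vector and 69.0, 48.3 and 46.7 in LOC_OE. Its Vector libraries were nearly alike, but it passed narrowly at a log2 fold change of 0.56 (limma adjusted p = 0.0492). It passed without LOC_OE replicate 1 and did not pass when any other library was left out.

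RNA polymerase I showed the smallest median excess of LOC_OE replicate 1 of the steps. Its listed subunits both passed, beside 10.7% of all genes tested, with neither at 1.5-fold. POLR1B, the second largest subunit, had 18, 16.0 and 16.4 FPKM in Vector and 23.9, 21.7 and 22.0 in LOC_OE, a log2 fold change of 0.40 (standard error 0.084, limma adjusted p = 0.0235). POLR1A, the largest and catalytic subunit, had 9, 8.60 and 8.49 FPKM in Vector and 12.1, 10.3 and 11.7 in LOC_OE, a log2 fold change of 0.35 (standard error 0.087, limma adjusted p = 0.0374). Replicate 1 exceeded the mean of replicates 2 and 3 by 0.12 and 0.13 in these genes on the log2(FPKM + 1) scale, against a median of 0.50 over the 54 factors.

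Small subunit processome factors had a median log2 fold change of 0.47, with 6 of 16 past the threshold and 3 of these at 1.5-fold. The shares of all genes tested were 10.7% and 4.63%. DCAF13, the human counterpart of yeast Sof1 (ENSG00000164934), had 13.0, 12.2 and 13.4 FPKM in Vector and 24.3, 20.2 and 19.9 in LOC_OE, the largest change of the step at 0.69 (standard error 0.10, limma adjusted p = 0.00968). WDR43, a subunit of the early complex that joins polymerase I transcription to processing, was the most abundant, with 28.4, 26.2 and 29.8 FPKM in Vector and 48.4, 42.2 and 39.8 in LOC_OE (log2 fold change 0.61, limma adjusted p = 0.0132). NOL11, UTP15, NAT10 and HEATR1 also passed. HEATR1, a large scaffold protein, had 11.2, 10.9 and 11.5 FPKM in Vector and 14.9, 14.8 and 15.1 in LOC_OE, so its LOC_OE libraries agreed within 0.135 FPKM (SD) and showed no excess of replicate 1. HEATR1 overlaps LGALS8 on the opposite strand over 23.2% of its exonic length, and the strand of the reads is not given in the sources used here. Other listed factors overlap expressed opposite-strand genes too, among them EMG1 (LPCAT3, 49.5%), IMP3 (SNX33, 31.2%), NHP2 (RMND5B, 27.4%), TSR1 (SRR, 20.7%) and NIP7 (COG8, 20.2%). The part of such overlaps in the values was not tested. UTP20 had a log2 fold change as large as that of DCAF13, 0.69, but a standard error of 0.20, and did not pass (limma adjusted p = 0.0587). Without LOC_OE replicate 1 it was 0.45 and passed (limma adjusted p = 0.00481).

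In other members of this step only replicate 1 stood well above Vector. RRP9, which binds the U3 small nucleolar RNA, had 27.9, 27.7 and 26.8 FPKM in Vector and 62.7, 29.7 and 27.3 in LOC_OE. Replicates 2 and 3 lay close to the Vector level, and its log2 fold change changed from 0.42 (limma adjusted p = 0.355) to 0.051 without replicate 1. NOC4L had the smallest change of the step, 0.05 (limma adjusted p = 0.902), made of 18.2, 16.7 and 15.5 FPKM in Vector against 26.3, 14.8 and 13.5 in LOC_OE. Its replicates 2 and 3 lay below all Vector libraries and replicate 1 above them, and the log2 fold change was −0.23 without replicate 1 (limma adjusted p = 0.0691).

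Pre-40S maturation factors had the lowest median of the steps, 0.31, with 2 of 8 past the threshold, both at 1.5-fold. Of all genes tested, 4.63% met both thresholds. LTV1, which is released late from the pre-40S particle (ENSG00000135521, chromosome 6 from 143843344 to 143863812), had 7.04, 7.61 and 8.21 FPKM in Vector and 18.4, 12.5 and 12.5 in LOC_OE, a log2 fold change of 0.82 (standard error 0.16, limma adjusted p = 0.0186). PNO1, the RNA-binding partner of the nuclease NOB1, had 10.5, 9.28 and 10.7 FPKM in Vector and 22.0, 15.6 and 13.5 in LOC_OE (log2 fold change 0.66, limma adjusted p = 0.0427). NOB1 itself, which makes the final cut at the 3′ end of 18S ribosomal RNA and was the most abundant of the step, had 51.0, 47.7 and 45.0 FPKM in Vector and 66.0, 59.2 and 55.3 in LOC_OE. Its groups did not overlap, and its log2 fold change of 0.32 did not pass (95% interval 0.085 to 0.56, limma adjusted p = 0.0643), while without LOC_OE replicate 1 it was 0.25 and passed (limma adjusted p = 0.0325). RIOK1, an atypical kinase, had the smallest change: 11.8, 10.7 and 13.5 FPKM in Vector and 17.4, 12.9 and 11.5 in LOC_OE, with overlapping groups (log2 fold change 0.18, 95% interval −0.21 to 0.58, limma adjusted p = 0.458). RIOK2, the related kinase, was highest in replicate 2 rather than replicate 1, at 8.72, 8.04 and 8.21 FPKM in Vector and 9.58, 10.5 and 9.56 in LOC_OE (log2 fold change 0.22, limma adjusted p = 0.0931, and 0.24 with a limma adjusted p of 0.034 without replicate 1).

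Large subunit factors spread the most, from 0.021 to 0.99, with a median of 0.43 and 7 of 18 past the threshold, 3 of them at 1.5-fold. The shares of all genes tested were 10.7% and 4.63%. NIP7, grouped here with the large subunit factors (ENSG00000132603, chromosome 16 from 69337996 to 69343111), had 12.9, 11.7 and 11.5 FPKM in Vector and 31.9, 22.0 and 22.1 in LOC_OE. This was the largest change of all 54 factors, 0.99 (standard error 0.16, limma adjusted p = 0.0114), and 0.82 without replicate 1. NOC3L, a nucleolar assembly factor (ENSG00000173145, chromosome 10 from 94333226 to 94362959), had 11.7, 11.9 and 13.3 FPKM in Vector and 21.1, 21.4 and 19.7 in LOC_OE. Its 3 LOC_OE libraries were alike, its log2 fold change was 0.71 (standard error 0.084, limma adjusted p = 0.00652), and it was the only factor past the threshold in all 6 fits made without a library. BRIX1, WDR12, RRP1B, GNL3 and NVL made up the rest of the 7. RRP1B had 26.7, 24.9 and 26.3 FPKM in Vector and 47.4, 34.3 and 37.0 in LOC_OE, and passed (log2 fold change 0.58, limma adjusted p = 0.0279) in 2 of the 6 fits. GNL3, the GTPase nucleostemin and the most abundant of the step, had 35.7, 31.9 and 33.4 FPKM in Vector and 53.7, 42.7 and 41.8 in LOC_OE, and passed (log2 fold change 0.43, limma adjusted p = 0.0464) in 1 of the 6.

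PES1, BOP1 and WDR12 form a complex that acts on the large subunit precursor. WDR12 had 10.0, 8.60 and 9.12 FPKM in Vector and 13.2, 12.4 and 12.7 in LOC_OE, with its LOC_OE libraries close together (log2 fold change 0.43, limma adjusted p = 0.0196). PES1 had 26.1, 25 and 24.6 FPKM in Vector and 48.2, 29.6 and 29.5 in LOC_OE (log2 fold change 0.45, limma adjusted p = 0.147). Without LOC_OE replicate 1, PES1 was at 0.22 and passed (limma adjusted p = 0.0155), as WDR12 did at 0.40 (limma adjusted p = 0.00914). BOP1 had 30.9, 29.5 and 29.1 FPKM in Vector and 52.2, 29.9 and 25.8 in LOC_OE, higher in replicate 1 alone (log2 fold change 0.20, limma adjusted p = 0.605, and −0.099 with a limma adjusted p of 0.333 without replicate 1). Differences between these 3 genes in their response were not tested.

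The widest split between LOC_OE libraries was in MRTO4, a placeholder for the stalk protein P0, and EBNA1BP2, a partner of RRS1. MRTO4 had 22.0, 19.8 and 19.1 FPKM in Vector and 72.6, 26.6 and 30.3 in LOC_OE. EBNA1BP2 had 19.5, 16.6 and 16.4 FPKM in Vector and 60.5, 24.2 and 24.3 in LOC_OE. Their log2 fold changes, 0.91 and 0.88, were among the largest of the list but did not pass (limma adjusted p = 0.121 in both), and without replicate 1 they were 0.47 and 0.45 and passed (limma adjusted p = 0.00986 and 0.00998). FTSJ3, an RNA methyltransferase, had the smallest change of all 54 factors. It had 20.5, 19.3 and 17.9 FPKM in Vector and 26.8, 17.1 and 16.1 in LOC_OE, a log2 fold change of 0.021 (95% interval −0.44 to 0.48, limma adjusted p = 0.948) that changed to −0.20 without replicate 1.

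The lowest levels were those of PPAN and NOP2. PPAN, the counterpart of yeast Ssf1, had 1.57, 2.17 and 2.41 FPKM in Vector and 2.39, 1.81 and 2.24 in LOC_OE, with overlapping groups. NOP2, the cytosine methyltransferase of 28S ribosomal RNA, was the only member under the filter, at 0.466, 0.264 and 0.298 FPKM in Vector and 0.506, 0.399 and 0.349 in LOC_OE. NOP2 shares 54.4% of its exonic length on the same strand with AC006064.6, a longer gene model listed at 0, and PPAN shares 56.0% with the readthrough gene PPAN-P2RY11, at or below 0.026 FPKM. How reads in such shared sequence were counted is not given in the sources used here, and their part in the low values of NOP2 and PPAN was not tested.

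**Figure D2:**
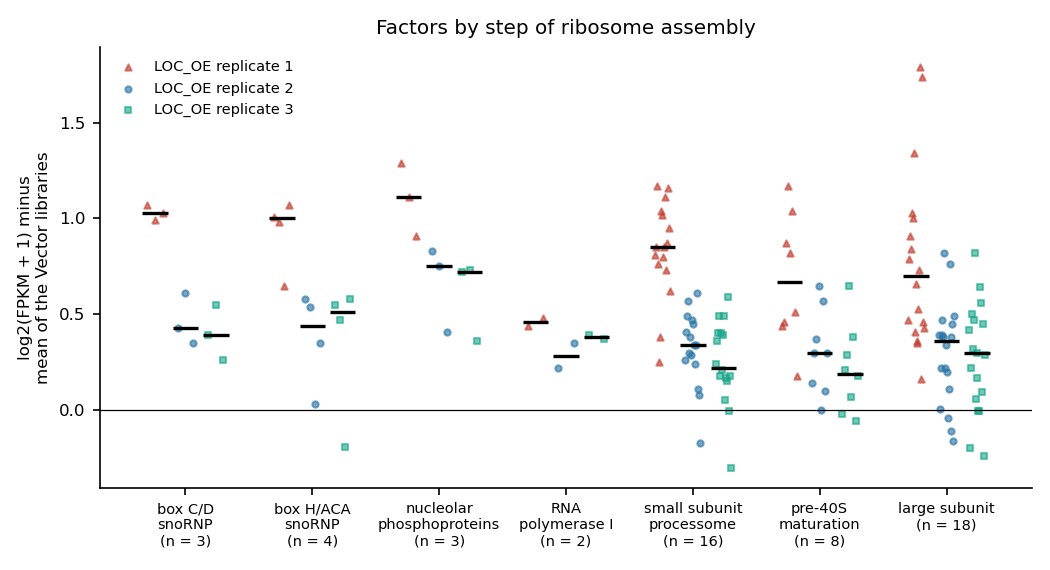
Each symbol is a ribosome biogenesis factor in a LOC_OE library, as log2(FPKM + 1) minus the Vector mean on the vertical axis, by step of ribosome assembly, and black lines are medians over the factors of a step. Replicate 1 lies above replicates 2 and 3 in every step, with medians from 0.46 for RNA polymerase I to 1.11 for the nucleolar phosphoproteins, whose replicates 2 and 3 are at 0.75 and 0.72.

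The steps overlapped widely, and with 2 to 18 genes in a step their order is a description. The nucleolar phosphoproteins led with all libraries (median 0.86) and without LOC_OE replicate 1 (0.74), followed without it by box H/ACA (0.48) and box C/D snoRNPs (0.41), the large subunit (0.35), RNA polymerase I (0.33), and the small subunit processome and pre-40S factors (0.25 each). With all libraries the processome, at 0.47, stood above polymerase I, at 0.37, so this part of the order turned on replicate 1. On the log2(FPKM + 1) scale replicate 1 exceeded the mean of replicates 2 and 3 by more than 0.5 in 27 of the 54 factors, as it did in 14.3% of all genes tested. In 6 factors, HEATR1, NOC3L, WDR3, WDR12, NVL and RIOK2, the excess was within 0.1 of 0.

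**Figure D3:**
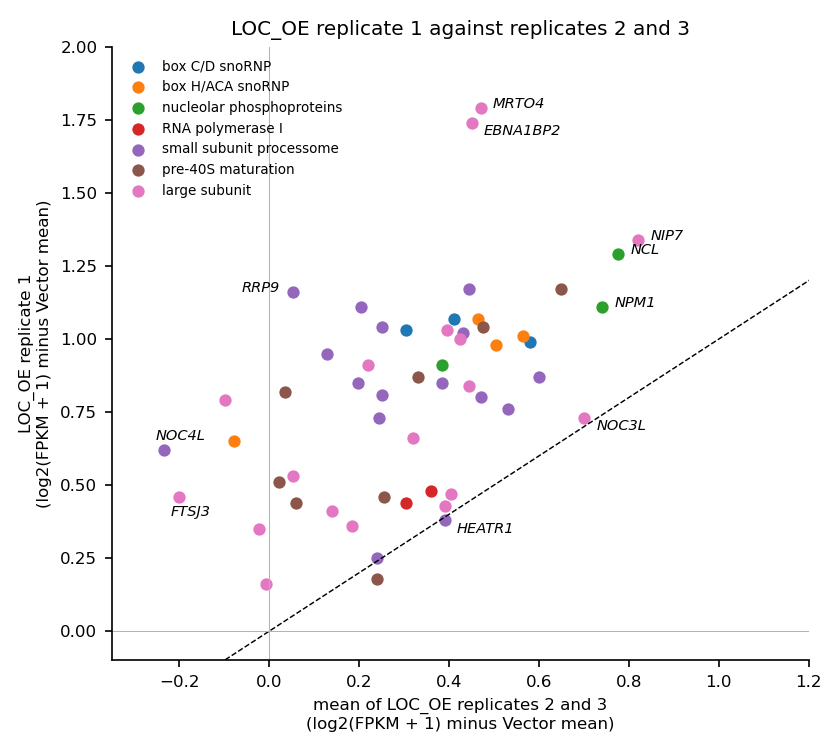
Each point is a factor, with the mean of LOC_OE replicates 2 and 3 on the horizontal axis and replicate 1 on the vertical axis, both as log2(FPKM + 1) minus the Vector mean, coloured by step, and the dashed line marks equal values. Most points lie above the line, MRTO4 and EBNA1BP2 by 1.32 and 1.29 and RRP9 by 1.11, while NOC3L and HEATR1 lie on it.

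Base composition moved with these values. Over the 54 factors, the log2 fold change without LOC_OE replicate 1 correlated with the GC content of the gene's longest GENCODE transcript at r = −0.59, compared with −0.23 over all genes tested. The excess of replicate 1 correlated with GC content in the other direction, at 0.50 over the factors and 0.21 over all genes. These correlations are across genes of the same 6 libraries, which are not independent replicates. Of the 27 factors with the lower GC content (36.5% to 48.0%), 19 were higher in LOC_OE. Of the 27 with the higher GC content (48.4% to 65.2%), 5 were, beside 10.7% of all genes tested. Without LOC_OE replicate 1, 22 of the lower and 16 of the higher part were higher in LOC_OE, beside 19.4% of all genes. The medians were then 0.40 and 0.22. NOC3L, HEATR1, DCAF13 and WDR43 are in the lower part, as are GTPBP4, RIOK1 and GNL2, which did not pass. RRP9, NOC4L, BOP1 and FTSJ3 are in the higher part, as are NIP7 and DKC1, which passed. After removal of the GC trend from every library, 21 factors were higher, beside 1735 of 16061 genes, and the median of the factors was 0.49. Whether base composition plays a part in which factors passed was not otherwise tested.

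**Figure D4:**
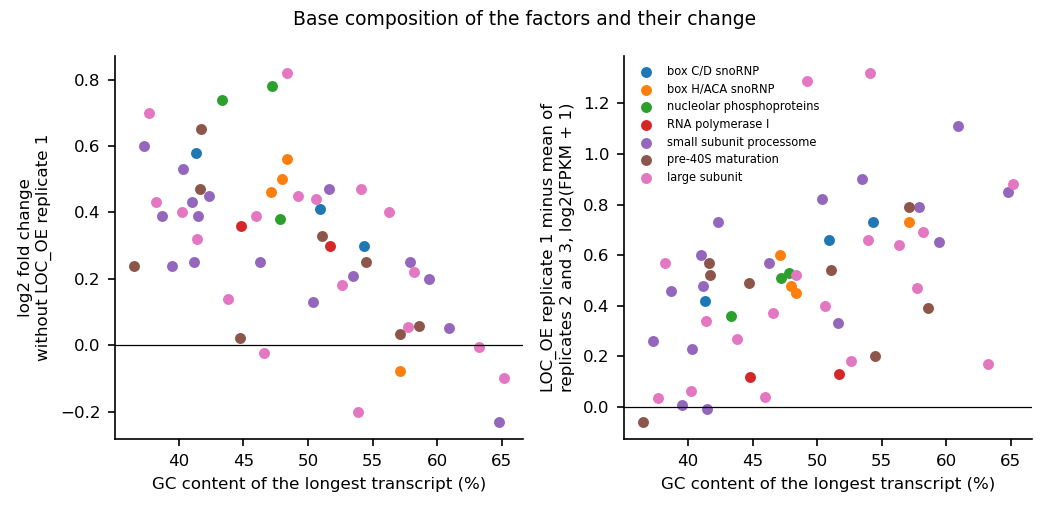
Points are the 54 factors, coloured by step, with the GC content of the longest transcript (percent) on both horizontal axes. The left panel shows the log2 fold change without LOC_OE replicate 1, which falls with GC content (r = −0.59), and the right panel the excess of LOC_OE replicate 1 over replicates 2 and 3 in log2(FPKM + 1), which rises with it (r = 0.50).

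A wider list of 129 further factors of the same pathway had a smaller median change. Of 128 tested, 39 were higher and 2 were lower at a limma adjusted p under 0.05, with a median log2 fold change of 0.31, and 15 were higher by 1.5-fold or more. The shares of all genes tested were 10.7% higher and 9.74% lower. Without LOC_OE replicate 1, 53 of the 128 were higher and 14 were lower, against 19.4% and 16.1% of all genes. By step, 4 of 14 polymerase I factors were higher, 3 of 10 snoRNP assembly factors, 12 of 36 small subunit factors, 14 of 43 large subunit factors, and 6 of 25 subunits of the exosome and RNase MRP. The largest increases were in POP1, UTP14A and NIFK. POP1, the largest protein of RNase MRP, had 10.0, 8.18 and 8.17 FPKM in Vector and 28.8, 17 and 16.9 in LOC_OE (log2 fold change 1.12, limma adjusted p = 0.0183). UTP14A, a processome factor, had 3.94, 4.43 and 4.18 FPKM in Vector and 10.3, 9.43 and 10.8 in LOC_OE (log2 fold change 1.11, limma adjusted p = 0.00292). NIFK, a nucleolar partner of the proliferation marker Ki-67, had 20.3, 19.3 and 21.4 FPKM in Vector and 38.5, 37.5 and 37.7 in LOC_OE (log2 fold change 0.87, limma adjusted p = 0.00344). UTP14A and NIFK were raised about equally in all 3 LOC_OE libraries, while POP1 was highest in replicate 1.

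With all libraries, the 2 factors that fell were of the large subunit. Without LOC_OE replicate 1, the 14 that fell were 8 large subunit, 4 small subunit, 1 snoRNP assembly and 1 exosome or RNase MRP factor. ZNF622, which acts on the 60S particle in the cytoplasm, had 67.0, 65.6 and 59.7 FPKM in Vector and 41.2, 35.5 and 35.5 in LOC_OE (log2 fold change −0.76, limma adjusted p = 0.00758). NOP53, which brings the exosome to the pre-60S particle, had 94.0, 90.4 and 84.3 FPKM in Vector and 57.1, 72.7 and 62.9 in LOC_OE (log2 fold change −0.48, limma adjusted p = 0.0305). All LOC_OE libraries of both genes lay below all Vector libraries.

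The ribosomal proteins themselves had smaller medians. Of 83 cytosolic ribosomal proteins tested, 20 were higher and 2 were lower by limma, with a median log2 fold change of 0.24, and of 78 mitochondrial ribosomal proteins 19 were higher, with a median of 0.33, beside 10.7% higher and 9.74% lower among all genes. Without LOC_OE replicate 1, 33 cytosolic ribosomal proteins were higher and 5 lower, and 29 mitochondrial ones were higher and 5 lower, beside 19.4% and 16.1% of all genes. In the same fit the medians were 0.19 for cytosolic and 0.14 for mitochondrial ribosomal proteins, 0.19 for the further factors and 0.35 for the 54 listed factors. The differences between these lists were not tested, since genes of a list are not replicates.

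**Figure D5:**
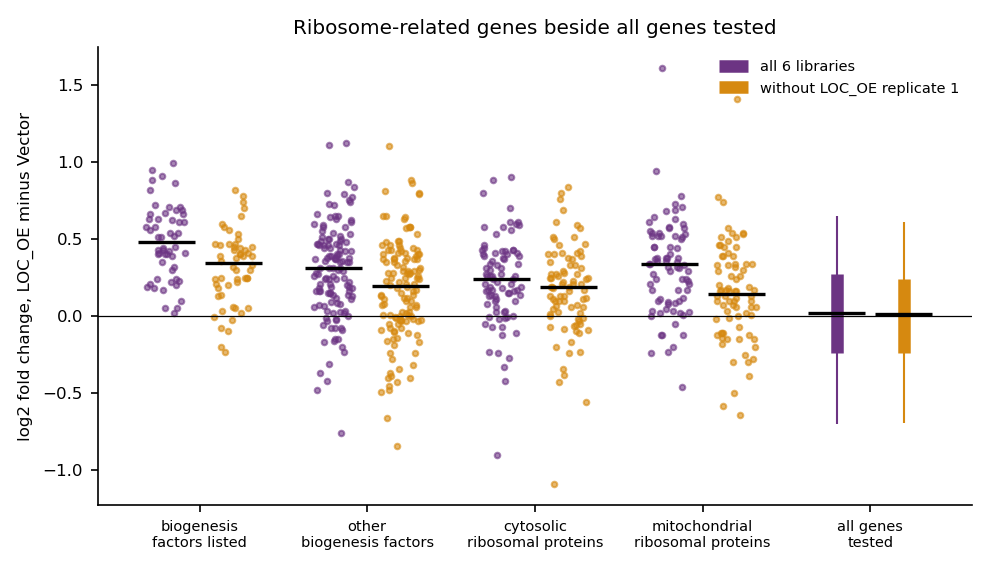
Points are genes of 4 lists, and the vertical axis is the log2 fold change of LOC_OE over Vector with all 6 libraries (purple) and without LOC_OE replicate 1 (orange), with black lines at the medians. For all genes tested, the thick bars run from the 25th to the 75th and the thin lines from the 5th to the 95th percentile; the listed factors have the highest medians, 0.48 and 0.35, and all genes lie at 0.019 and 0.011.

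The promoter sequences of the factors were also examined. RefSeq windows of 250 bases before to 50 after the start of transcription (GRCh38.p14) were matched for 47 of the 55 genes, in 54 windows. The E-box CACGTG, the palindromic site that MYC with MAX and several other basic helix-loop-helix factors recognise, was found in 38.9% of the members' windows, in 7.26% of all windows and in 9.47% of the windows of tested protein-coding genes. All 20 members with an E-box had a copy within 50 bases of the start, from 16 bases before to 42 after it. This applied to 37.0% of the members' windows, against 3.88% for tested protein-coding genes. The motif CCGGAAG, read on either strand and recognised by ETS family factors, was found in 37.0% of the members' windows, in 10.3% of all windows and in 17.9% of those of tested protein-coding genes. A match in these letters is not evidence of binding, which was not measured.

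The sequences below show the 100 bases from 72 before to 28 after the start of 4 members that rose by at least 1.5-fold, with the E-box in capitals, 5′ to 3′ on the strand of the gene. WDR43 lies at chr2:28894595-28894694 on the plus strand, PNO1 at chr2:68157816-68157915 on the plus strand, NOC3L at chr10:94362912-94363011 on the minus strand and NOP10 at chr15:34343109-34343208 on the minus strand.
WDR43: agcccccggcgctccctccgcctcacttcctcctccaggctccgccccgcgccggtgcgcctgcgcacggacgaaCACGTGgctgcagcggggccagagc
PNO1: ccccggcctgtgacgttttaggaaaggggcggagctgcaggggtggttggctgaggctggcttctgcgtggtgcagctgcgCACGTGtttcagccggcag
NOC3L: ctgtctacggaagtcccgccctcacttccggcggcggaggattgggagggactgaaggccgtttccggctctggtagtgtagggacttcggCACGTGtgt
NOP10: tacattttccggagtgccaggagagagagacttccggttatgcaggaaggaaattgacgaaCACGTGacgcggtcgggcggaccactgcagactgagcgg

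Members that passed were found with and without the E-box. Among all genes tested, 10.7% were higher in LOC_OE and 4.63% by 1.5-fold. Of 19 tested members with the E-box, 8 were higher in LOC_OE and 6 of these by 1.5-fold, with a median log2 fold change of 0.58. Of 27 tested members whose windows lacked it, 12 were higher and 6 by 1.5-fold, with a median of 0.40. NIP7, NPM1 and NCL, which had the largest changes among those that passed, were in the second set, and RRP9 and BYSL, at or close to the Vector level in replicates 2 and 3, were in the first. The medians of these sets without LOC_OE replicate 1 were 0.45 and 0.30. In that fit 15 of the 19 and 18 of the 27 were higher, beside 19.4% of all genes.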

How the data were processed

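Gene expression was measured by paired-end RNA sequencing (NEBNext Ultra libraries, Illumina NovaSeq) in 3 Vector and 3 LOC_OE libraries. The authors deposited a table of FPKM for 58735 genes. Their processing notes name HISAT2 2.0.4, StringTie 1.3.0 and hg38, without roles. The counting tool and annotation are not given in the sources used here. The deposited FPKM times the merged exon length in GENCODE release 29 gave whole reads within 0.1 for 100% of values, and the implied library sizes equalled median-of-ratios factors times the mean total, so the FPKM were already on a common scale. The 6 libraries held 15008842 to 18410231 reads on genes, and read numbers cover counting error only, as the reads carry no molecular identifiers. There were 0 unused columns of values.

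Genes with at least 0.5 FPKM in at least 3 libraries were fitted as log2(FPKM + 1) with limma 3.58.1 (R 4.3.3; eBayes with a variance trend, no covariate), and p-values were Benjamini-Hochberg adjusted over all 16061 genes. On this scale the change of a gene at a low level is understated. A factor was counted as higher or lower at an adjusted p under 0.05; the 1.5-fold threshold is that of the study. The members, steps, other lists and thresholds were chosen with earlier results of these data known. Values in every library are given, within each step, for the factor with the largest change, the smallest change and the highest mean FPKM, for the factor under the filter, and for up to 5 that passed with all libraries but not in 4 or more of the 6 fits without a library. Of the other factors, the 3 largest increases and decreases that passed are named (only 2 fell). Further members, such as those of the PES1 complex, were picked after their values were seen. No test was made over lists of genes. The code was tested on simulated data. Alternatives were a pseudocount of 0.1, no filter, rescaling to the same summed FPKM, quantile normalization, no variance trend, array weights, a replicate block, limma voom on the recovered reads, removal of GC trends, and leaving out each library. Motifs were searched on both strands. Python 3.11.15 and matplotlib 3.10.9 were used for motifs and figures.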

Additional observations from a re-analysis of the deposited data

How the results depend on the processing

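Numbers of calls depended on the processing more than directions did. The number of listed factors that were higher, 24 in the fit reported, was 14 with no filter on low FPKM (9 at 1.5-fold, instead of 14), 12 after rescaling to the same summed FPKM (3 at 1.5-fold), and 42 with array weights (8 at 1.5-fold). Quantile normalization gave 4 at 1.5-fold. Leaving out 1 library gave 1 to 38 factors higher and 1 to 12 at 1.5-fold, with the lowest counts without Vector replicate 2 or 3. No factor was lower at an adjusted p under 0.05 in any of these fits. For the other factors of the pathway, of which 39 were higher and 15 by 1.5-fold, the counts were 24 with no filter, 18 and 3 after the rescaling, 8 at 1.5-fold after quantile normalization, 70 with array weights, and 5 to 53 and 5 to 18 without 1 library. The number of them lower, 2 in the fit reported, was 9 after the rescaling, 7 after quantile normalization, 14 with array weights and 0 to 14 without 1 library. Their median log2 fold change was 0.07 after the rescaling. The numbers over all genes moved as well. In the fit reported, 1712 of 16061 genes were higher and 1565 lower. With no filter, 1052 of 31123 were higher and 1229 lower. Higher and lower genes numbered 716 and 3138 after the rescaling, 1676 and 1802 after quantile normalization, and 4362 and 3724 with array weights. Without 1 library, 144 to 3117 genes were higher and 227 to 2586 lower.

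With the replicate number as a block, 15 of the listed and 22 of the other factors were higher, against 1125 of 16061 genes. The labels do not say whether same-numbered libraries of the 2 groups were prepared together. Deviations from the group means correlated at 0.1107, −0.0338 and 0.1165 between same-numbered libraries. Values for differently numbered libraries are not given beside them, so these correlations cannot decide whether the libraries are paired.

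Changes of sign concerned factors that did not pass in the fit reported, although WDR3, RIOK2 and GNL3L passed without LOC_OE replicate 1. After rescaling to the same summed FPKM, the log2 fold change was −0.087 for NHP2, −0.0013 for WDR3, −0.2 for NOC4L, −0.059 for each of RRP12, RIOK1 and BOP1, −0.013 for RIOK2, −0.017 for GNL2, −0.0079 for GNL3L, −0.15 for GTPBP4, −0.044 for NOC2L, −0.13 for PPAN and −0.23 for FTSJ3. Quantile normalization gave −0.085 for NHP2, −0.11 for NOC4L, −0.051 for BOP1, −0.12 for GTPBP4, −0.054 for NOC2L and −0.15 for FTSJ3. Array weights gave −0.17 for NOC4L, −0.0012 for BOP1, −0.016 for GTPBP4, −0.1 for PPAN and −0.15 for FTSJ3. Over the 6 fits without a library, the range was −0.076 to 0.34 for NHP2, −0.23 to 0.22 for NOC4L, −0.099 to 0.4 for BOP1, −0.023 to 0.17 for GTPBP4, −0.068 to 0.14 for PPAN and −0.2 to 0.15 for FTSJ3. These were below 0 without LOC_OE replicate 1, and NOC4L and FTSJ3 also without Vector replicate 3 and PPAN without Vector replicate 1. The rescaling lowers every gene of LOC_OE, whose summed FPKM was higher, and fits without a library have fewer samples. The cause of the other differences was not tested.

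With 3 libraries a group, FBL and MRTO4, in which LOC_OE replicate 1 stood apart, did not pass with all libraries. NOLC1, GAR1 and NOL11, in which it also exceeded the mean of replicates 2 and 3 by more than 0.5, passed narrowly. PPAN and NOP2 are limited by their low levels.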
